A study of Homo sapiens with 4 samples.

Results

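To determine how a set of feedback inhibitors of MAP kinase signalling was expressed upon TXNDC9 knockout, the rows of 10 genes were taken from the deposited expression table by their gene symbol. The genes were the dual specificity phosphatases DUSP1, DUSP2, DUSP4, DUSP5, DUSP6 and DUSP10, the Sprouty genes SPRY2 and SPRY4, and the Sprouty-related genes SPRED1 and SPRED2. The table held values for 57979 genes, and each of the 10 symbols stood on 1 line with values. The study sequenced polyadenylated RNA from HepG2, a line derived from a human liver cancer and grown in DMEM with fetal bovine serum. The 4 libraries were 2 labelled wild type (WT) and 2 labelled TXNDC9-KO, in which CRISPR-Cas9 had been directed at TXNDC9. The study describes 2 guide RNAs, and which of them made the sequenced cells, or whether the cells were 1 clone or a pool, is not given in the sources used here. No label says whether the libraries of a group came from separate cultures, so each p-value measures only the spread between these libraries, which may be technical.

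MAP kinases such as ERK are switched on when an upstream kinase phosphorylates a threonine and a tyrosine in their activation loop. The dual specificity phosphatases remove both phosphates and so switch the kinase off. Many of their genes are themselves induced by MAP kinase signalling as immediate early or delayed early genes, which makes them a negative feedback loop. Sprouty and SPRED proteins act further up, between the growth factor receptor and RAF, and their genes are likewise induced by ERK activity in many cell types. The mRNA levels of these genes are therefore often read as a record of recent ERK signalling, although each gene also answers to other inputs, and several of the transcripts carry AU-rich elements that shorten their life.

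Before any comparison, the labels were checked against marker genes. All 10 hepatocyte markers examined (ALB, AFP, APOA1, APOB, TTR, SERPINA1, FGB, TF, HNF4A and FOXA2) were at or near 0 in all 4 libraries, with a highest single value of 0.449 FPKM, so the data go against the hepatic identity that the label HepG2 implies. FPKM counts the fragments of a gene relative to the length of its transcript and to the mapped fragments of the library. The summed level of the 10 markers was 0.446, 0.733, 0.0479 and 0.174 FPKM in WT replicate 1, WT replicate 2, TXNDC9-KO replicate 1 and TXNDC9-KO replicate 2, the order used for all values given in fours. Among markers of other cell types, 3 of 5 fibroblast genes, 1 of 5 leukocyte genes and 1 of 4 endothelial genes had a mean above 1 FPKM. Their summed levels were 33.4 to 52.2 FPKM for the fibroblast list, 3.90 to 7.40 for the leukocyte list and 0.803 to 4.41 for the endothelial list. In the last, PECAM1, VWF and KDR were at or near 0, and CDH5 had means of 0.909 FPKM in WT and 3.70 FPKM in the knockout. The fibroblast sum, which COL1A1 and COL3A1 made up for the most part, was lower and the endothelial sum higher in the knockout libraries, while the fibroblast marker PDGFRB rose (log2 fold change 1.55, adjusted p = 0.0039 by limma). The part of either in the results was not tested. The cells are therefore called by their labels only.

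The targeted gene, TXNDC9, was measured at 35.1, 37.3, 21.9 and 27.6 FPKM. Both knockout values lay below both wild-type values, with a log2 fold change of -0.55 (SE 0.14, adjusted p = 0.0145 by limma with Benjamini-Hochberg adjustment), which fell short of the adjusted p of 0.01 and of the 2-fold difference asked of a called gene. The direction depended on the scaling, since the value was 0.12 after rescaling every library to the same total (TPM) and -0.52 after correction for transcript length and GC content. These are mRNA levels, and the study reports reduced TXNDC9 protein by western blot in its knockout HepG2 cells. The knockout libraries are named from their labels. The 2 groups also differed throughout the table, since the sum of all FPKM values was 805816 and 971102 in the WT libraries but 535973 and 568279 in the knockout libraries. Across 13112 tested genes the log2 fold change was related to the length of the canonical transcript (Spearman's rho 0.49) and to its GC content (rho -0.46), a relation across genes that share the same 4 libraries. Values after correction for both are therefore given beside the results.

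The members' sequences show what the phosphatases share. The catalytic loop of this family is a short stretch with a cysteine that carries out the reaction, and its coding sequence was read from the canonical GENCODE 44 transcripts of 5 of the 6 phosphatases, with the cysteine codon in capitals.
DUSP1: cacTGCcaggcaggcatttcccgg
DUSP2: cacTGCcaggcgggtatctcgcgc
DUSP5: cacTGTgaggctgggatctcccgt
DUSP6: catTGCttggctggcattagccgc
DUSP10: cacTGCcaggctggggtgtcccgc
The cysteine was residue 258 of 367 in DUSP1, 257 of 314 in DUSP2, 263 of 384 in DUSP5, 293 of 381 in DUSP6 and 408 of 482 in DUSP10. Between 15 and 19 of the 24 bases were equal in each pair, with 19 in 4 of the pairs, those of DUSP10 with DUSP1, DUSP2 and DUSP5 and that of DUSP1 with DUSP2.

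The levels of the 10 genes spanned a wide range. In the WT libraries DUSP1 had the highest mean (75.2 ± 5.42 FPKM, SD, n = 2), followed by DUSP2 (24.7 ± 2.50). DUSP4, SPRED2 and SPRY2 came next with means of 4.55, 3.99 and 3.87 FPKM, and the values of these neighbours overlapped. DUSP5 (3.08), SPRED1 (1.98) and DUSP10 (1.56) were lower, and DUSP6 (0.457) and SPRY4 (0.253) were lowest. In the knockout libraries DUSP1 was again first (132 ± 3.92) and DUSP2 second (7.32 ± 0.44), but SPRED2 (5.87) and SPRY2 (5.36) lay close behind DUSP2. DUSP5 (4.56), DUSP4 (4.04) and SPRED1 (3.51) followed without overlap, and the values of DUSP10 (1.76) and DUSP6 (1.52) overlapped. Only genes with a mean over the 4 libraries above 1 FPKM were tested, which left 13246 genes and 8 of the 10 members, and DUSP6 and SPRY4 fell outside.

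**Figure D1:**
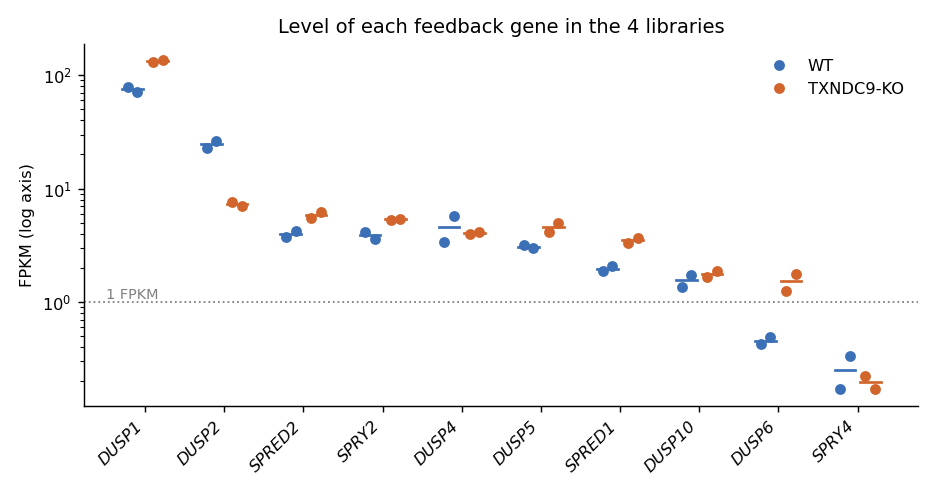
FPKM of the 10 feedback genes in each library on a log axis, ordered by mean level. Points are single libraries (2 WT, 2 TXNDC9-KO), short bars are group means, and the dotted line marks the filter of 1 FPKM. DUSP2 is the one gene with both knockout points below both wild-type points.

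DUSP2 was the only member that passed the thresholds, and it fell upon TXNDC9 knockout. The thresholds were an adjusted p below 0.01 and a difference of 2 times or more, and genes that met both are said to be called. DUSP2, the inducible nuclear phosphatase also known as PAC1, acts on ERK among other MAP kinases. It was at 22.9, 26.5, 7.63 and 7.01 FPKM. Both knockout libraries were far below both WT libraries, by 3.37 times on average, and the gap was many times the distance between replicates. The log2 fold change was -1.74 (SE 0.12, 95% interval -2.03 to -1.44, adjusted p = 5.1e-04, limma with Benjamini-Hochberg adjustment). Of the 8 tested members 1 was thus called lower, where 15.3% of all tested genes were called lower, a share near that of 1 in 8. In bulk RNA, fewer cells that express a gene and less RNA per cell cannot be told apart. The gene maps to chromosome 2 (hg38, as for all genes here, bases 96143169 to 96145440, minus strand) and overlaps no other annotated gene. The study's RT-qPCR primers include pairs for DUSP2, SRM, WDR74 and PES1. It reports that the proteasome inhibitor MG132 restored genes lowered by loss of TXNDC9, and its text does not name those genes. Why DUSP2 was chosen is not given in the sources used here.

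The call of DUSP2 was sensitive to a few settings. It was lost when either TXNDC9-KO replicate 1 or TXNDC9-KO replicate 2 was left out (log2 fold change -1.80 and -1.68, adjusted p = 0.0237 and 0.0232), where the remaining knockout library is assumed to vary like the WT libraries. Under those 2 settings limma called none of the 13246 genes, although 2022 and 2290 were lower and 2066 and 1973 higher by at least 2 times at an unadjusted p under 0.05. After correction for transcript length and GC content the log2 fold change was -0.80 (adjusted p = 0.0038), lower in direction but under the fold threshold. DUSP2 has a short canonical transcript of 1685 nt with 63.9% GC, where the median tested gene had 2866.5 nt and 48.6%. Genes called lower had a median of 1433 nt and genes called higher 5546 nt.

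DUSP1, which encodes the inducible nuclear phosphatase MKP-1 that acts on p38, JNK and ERK, went the other way. Its level was 79.0, 71.3, 129 and 135 FPKM. Both knockout values lay above both WT values, at 1.76 times the WT mean. The log2 fold change of 0.81 (SE 0.11, 95% interval 0.54 to 1.09) had an adjusted p of 0.00167 but stayed below the fold threshold, and the gene was not called in this fit. No member was called higher, where 14.2% of all tested genes were. At an unadjusted p under 0.05, whatever the fold, limma had 5 members higher, where 33.0% of all tested genes were, and 1 lower, where 38.3% were. DUSP1 is called higher once values are rescaled to TPM (1.49) and after correction for length and GC content (1.28, adjusted p = 0.0018). Its transcript is short, at 2013 nt and 55.2% GC, and tested genes of like length had a median log2 fold change of -0.48. The gene lies on chromosome 5 from 172768096 to 172771195 on the minus strand and overlaps 1 other annotated gene, and since the use of strand in counting is not given in the sources used here, reads of the 2 genes cannot be told apart.

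A ratio of genes within a library does not depend on a factor that multiplies the whole library. A difference by transcript length or GC content does not cancel in it. DUSP1 was 3.45 and 2.70 times the level of DUSP2 in the WT libraries and 17.0 and 19.2 times in the knockout libraries. The 2 pairs of ratios did not overlap. DUSP5 (0.139 and 0.113 of DUSP2 in WT, 0.542 and 0.710 in the knockout) and SPRED2 (0.165 and 0.159 against 0.721 and 0.890) showed the same order. So did every other member, DUSP4 (0.147 and 0.216 against 0.519 and 0.588), DUSP10 and SPRY4 among them, whose own groups overlapped. The denominator, DUSP2, was itself the member that fell, so a rise of these ratios is not separate support. These ratios state that the genes changed unequally and not which of them moved.

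The promoters of the 2 genes are shown because they bear the opposite results. RefSeq sequences (GRCh38.p14) of the 250 bases before the start site were printed 5′ to 3′ on the gene's strand, with matches to the motifs searched in capitals. Both stretches lie on the minus strand, DUSP2 at chr2:96145441-96145690 and DUSP1 at chr5:172771196-172771445.
DUSP2: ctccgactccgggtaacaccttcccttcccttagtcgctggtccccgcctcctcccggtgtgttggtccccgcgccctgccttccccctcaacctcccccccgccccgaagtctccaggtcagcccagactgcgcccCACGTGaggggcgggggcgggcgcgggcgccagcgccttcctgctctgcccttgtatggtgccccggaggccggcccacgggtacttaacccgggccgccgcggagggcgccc
DUSP1: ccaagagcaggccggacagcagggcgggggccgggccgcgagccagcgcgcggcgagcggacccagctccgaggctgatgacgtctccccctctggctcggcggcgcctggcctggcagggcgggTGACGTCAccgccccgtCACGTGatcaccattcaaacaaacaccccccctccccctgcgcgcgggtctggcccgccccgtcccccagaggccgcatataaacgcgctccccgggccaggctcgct
The E-box CACGTG can be bound by basic helix-loop-helix factors of the MYC and USF families. It begins at base -113 from the start site of DUSP2 and at base -108 from that of DUSP1. Binding at either site was not tested. The cyclic AMP response element TGACGTCA begins at base -125 of DUSP1. Of the 10 members 8 were in the promoter table, with 12 promoters in all, and DUSP4 and DUSP5 were not. Searched on both strands in the 250 upstream and first 50 transcribed bases, the E-box was in 2 of the 12 member promoters and in 7.26% of all 35116 promoters, and the cyclic AMP response element in 1 and in 1.85%. The AP-1 motif (TGACTCA or TGAGTCA) was in 1 of the 12 and in 4.95% of all. That promoter, of SPRED2, is at chr2:65366729-65367028 on the minus strand. It lies inside the gene, away from the gene's upstream end at 65432637. No member promoter held the ETS motif CCGGAAGT (4.14% of all) or the CArG box bound by serum response factor (1.29%). These are matches of letters only.

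DUSP4 and DUSP5 encode the other inducible nuclear phosphatases of the set. DUSP5, which is specific for ERK, was at 3.18, 2.98, 4.14 and 4.98 FPKM. Both knockout values were the higher ones, with a log2 fold change of 0.55 (SE 0.16, adjusted p = 0.0251), short of both thresholds. DUSP4, also known as MKP-2, was at 3.37, 5.72, 3.96 and 4.12 FPKM. Here the 2 knockout values lay between the WT values, which were themselves 0.75 apart on the log2 scale. The log2 fold change of -0.12 had a 95% interval from -0.76 to 0.52 (adjusted p = 0.701) and changed sign without WT replicate 2 (0.25) and after rescaling to TPM (0.55), so no difference was detectable with these libraries. DUSP5 lies on chromosome 10 from 110497907 to 110511533 on the plus strand, and DUSP4 on chromosome 8 from 29333064 to 29350684 on the minus strand.

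DUSP6 and DUSP10 differ from these in substrate or place. DUSP6, the cytoplasmic ERK-selective phosphatase MKP-3 and a widely used readout of ERK activity, was at 0.424, 0.491, 1.26 and 1.78 FPKM. Both knockout libraries were above both WT libraries, by 3.33 times on average. The mean of 0.990 FPKM missed the filter by a small margin, so the gene was not tested in the main comparison. When the fit was repeated without the filter over 26435 genes, DUSP6 had a log2 fold change of 1.52 with an adjusted p of 0.0289, past the fold threshold but not the p threshold. DUSP10, or MKP-5, which acts on JNK and p38 rather than ERK, was at 1.37, 1.74, 1.65 and 1.87 FPKM. Its groups overlapped, and the log2 fold change of 0.17 (SE 0.24, 95% interval -0.43 to 0.78, adjusted p = 0.552) did not differ from 0 beyond the spread. DUSP6 lies on chromosome 12 from 89347235 to 89352501 and DUSP10 on chromosome 1 from 221701424 to 221742089, both on the minus strand, and DUSP6 overlaps 1 other annotated gene.

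The Sprouty genes were low in all libraries. SPRY2, whose protein restrains receptor tyrosine kinase signalling to RAS, was at 4.12, 3.61, 5.32 and 5.40 FPKM. The groups did not overlap, and the log2 fold change was 0.46 (SE 0.14, adjusted p = 0.0260). SPRY4 was at 0.171, 0.336, 0.223 and 0.170 FPKM, with overlapping groups, far under the filter. Its 3 overlapping genes include SPRY4-AS1. SPRY2 lies on chromosome 13 from 80335976 to 80341126 and SPRY4 on chromosome 5 from 142310427 to 142326455, both on the minus strand.

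SPRED1 and SPRED2 encode adaptors that bring the RAS GTPase-activating protein neurofibromin to the membrane. SPRED1 was at 1.87, 2.08, 3.34 and 3.68 FPKM. Both knockout values were higher, by 1.78 times on average, with a log2 fold change of 0.80 (SE 0.17, 95% interval 0.37 to 1.23, adjusted p = 0.0087) that met the p threshold but not the fold threshold. SPRED1 has the longest canonical transcript of the members (7270 nt, 36.3% GC), and after correction for length and GC content its value was -0.27 (adjusted p = 0.221), with the sign reversed. SPRED2 was at 3.78, 4.20, 5.50 and 6.24 FPKM. Its groups were also apart, with a log2 fold change of 0.54 (SE 0.14, adjusted p = 0.0162), and 0.30 after the correction. SPRED1 lies on chromosome 15 from 38252836 to 38357249 on the plus strand and SPRED2 on chromosome 2 from 65310851 to 65432637 on the minus strand, where it overlaps 1 other annotated gene.

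**Figure D2:**
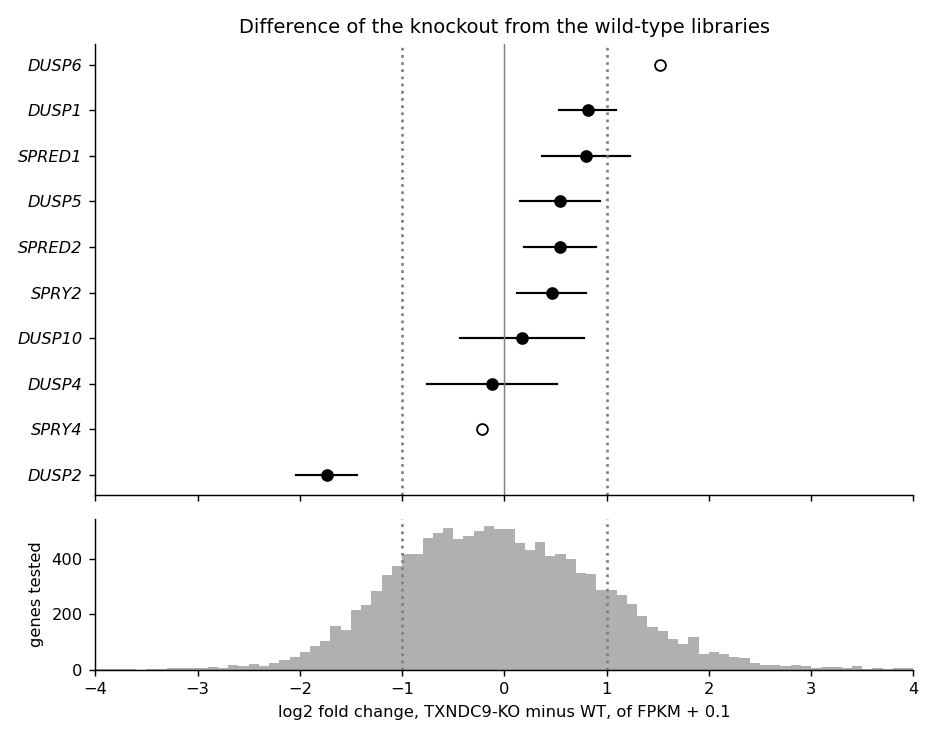
Log2 fold change of FPKM + 0.1 (TXNDC9-KO minus WT) of the 10 genes, with the 95% interval from limma for the 8 tested ones; open circles were not tested. The lower panel counts all 13246 tested genes in bins, and dotted lines mark a 2-fold difference, which among tested members DUSP2 alone (-1.74) passed.

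Over the whole set, the knockout values lay above the WT values in 6 of 10 members (DUSP1, DUSP5, DUSP6, SPRY2, SPRED1 and SPRED2), below them in 1 (DUSP2) and overlapped in 3 (DUSP4, DUSP10 and SPRY4). Of the 8 tested members 5 were higher and 1 was lower in this sense, where 40.1% of all tested genes had both knockout values above and 45.9% had them below. With 2 libraries against 2, an exact two-sided permutation test cannot give a p under 0.333. By adjusted p alone, 2 members were higher (DUSP1 and SPRED1), where 23.7% of all tested genes were, and 1 was lower (DUSP2), where 27.1% were. The median log2 fold change was 0.50 over all 10 members and -0.09 over all tested genes.

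The level of the whole table depended on its scaling, and with it the counts of the members. TPM rescales each library to the same sum and moved the median of all tested genes by 0.67 on the log2 scale, to 0.59. The share of calls that were higher went from 48.3% to 90.7% with TPM, and to 35.8% when each library was centred on its median, which put the median log2 fold change at -0.23. With TPM, 5 members were called higher (DUSP1, DUSP5, SPRY2, SPRED1 and SPRED2, from 1.14 to 1.49), where 33.1% of all tested genes were, and DUSP2 (-1.06) was called lower, where 3.37% were. After correction for length and GC content DUSP1 was the 1 member called higher, where 6.38% of 13112 genes were, and none was called lower, where 7.72% were. At an unadjusted p under 0.05 and at least 2-fold, 1189 genes were lower after that correction, and DUSP2 at -0.80 was not among them. The direction of DUSP1 and DUSP2 thus held in all 3 of these scalings.

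**Figure D3:**
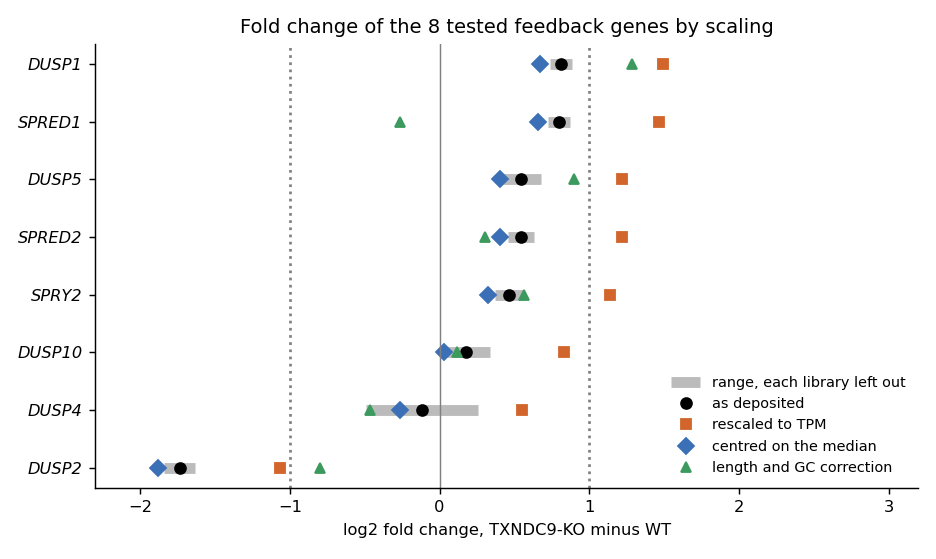
Log2 fold change (TXNDC9-KO minus WT) of the 8 tested genes as deposited, rescaled to TPM, centred on the library median, and corrected for transcript length and GC content; grey bars span the values with each library left out in turn. DUSP1 stays right and DUSP2 left of 0 under each, while SPRED1 moves from 0.80 to -0.27 with the correction.

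Against transcript length, the members stood among genes that differed to unlike degrees. The 1148 other tested genes within 10% of the length of DUSP1 (2013 nt) had a median log2 fold change of -0.48, where DUSP1 had 0.81. Genes of the length of DUSP2 (1685 nt) had a median of -0.57, beside -1.74 for DUSP2. For DUSP6 (3627 nt, not tested) the median was 0.13 beside 1.52. DUSP5 stood at 0.55 beside a median of -0.28, SPRY2 at 0.46 beside -0.36 and DUSP10 at 0.17 beside -0.22. SPRED1 (7270 nt) stood at 0.80 where genes of its length had a median of 0.77, and SPRED2 (4519 nt) at 0.54 beside 0.36. DUSP4 (5553 nt) and the untested SPRY4 (4904 nt) had values of -0.12 and -0.22 where genes of their length had medians of 0.58 and 0.42. The log2 ratio of WT replicate 2 to WT replicate 1 was also related to length (rho -0.32 across genes), while that of the 2 knockout libraries was hardly so (rho -0.06). The part of length in the group difference of any single member was not tested beyond the correction.

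**Figure D4:**
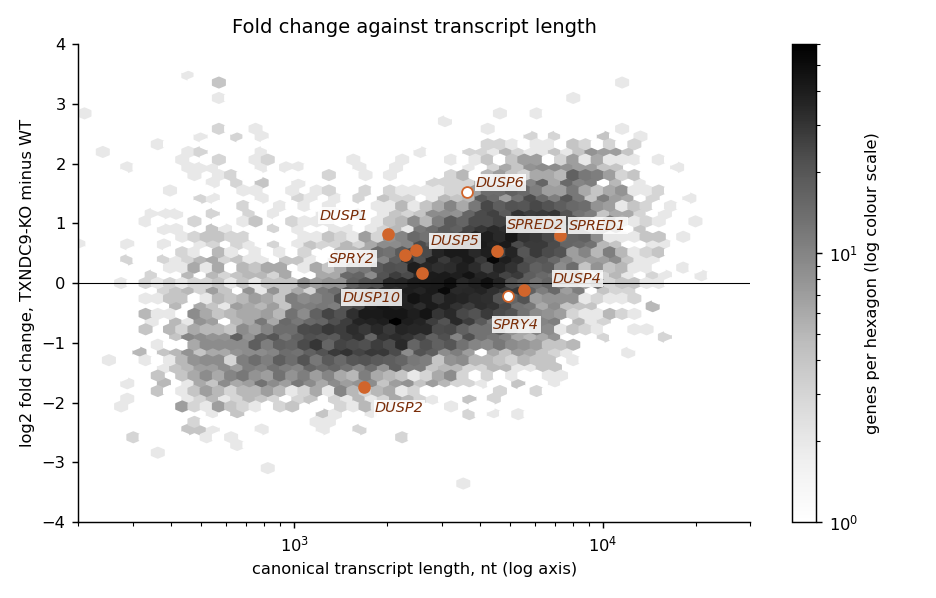
Log2 fold change (TXNDC9-KO minus WT) against the canonical transcript length on a log axis; hexagons count tested genes on a log colour scale and circles are the 10 feedback genes, open where not tested. Longer genes tend to lie higher, DUSP1 (0.81) lies above the median of genes of its length (-0.48), and SPRED1 (0.80) close to that of genes of its own (0.77).

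AU-rich elements in the 3′ UTR are a property that many feedback genes share. The heptamer TATTTAT was counted in the 3′ UTR of the canonical transcript of each member. It occurred in 7 of 10 members, and in 35.5% of the 11081 tested genes with a 3′ UTR, whose median 3′ UTR was 1302 nt. SPRED1 held 5, SPRY4 and DUSP4 held 4 each, DUSP1 held 3, SPRY2 held 2, and DUSP2 and SPRED2 held 1 each, while DUSP5, DUSP6 and DUSP10 held none.

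To show how DUSP1 and DUSP2 differ here, the windows of 27 bases around their heptamers are given, with the heptamer in capitals and its first base counted from the start of the 3′ UTR.
DUSP1 base 102: ggctggtcctTATTTATttaacttcac
DUSP1 base 370: gaatatacctTATTTATttttgtgtag
DUSP1 base 563: gtttgctgatTATTTATgacctgaaat
DUSP2 base 598: tagcactttaTATTTATacagaacatt
The 3′ UTRs are of similar length (666 nt in DUSP1 and 654 nt in DUSP2). Among tested genes 6.89% held 3 or more heptamers, as DUSP1 does, and 4 of the 10 members did. Members with the heptamer had values in both directions, from -1.74 in DUSP2 to 0.81 in DUSP1.

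The mRNAs of proteins that bind such elements were also measured. All 5 listed genes were tested, and 1 was called higher, where 14.2% of all tested genes were. ZFP36, which encodes tristetraprolin and promotes decay of AU-rich mRNAs, rose from 2.47 and 1.76 to 7.18 and 7.95 FPKM (log2 fold change 1.81, SE 0.20, adjusted p = 8.7e-04), and remained called with TPM and after the correction for length and GC content (2.46). ZFP36L1, its close relative, had a log2 fold change of 0.89 (adjusted p = 0.0011) and missed the fold threshold. ZFP36L2 (0.53) and ELAVL1 (0.25) were not called. HNRNPD went the other way, at 277, 276, 178 and 191 FPKM (-0.59, adjusted p = 0.0063 by limma), and missed the fold threshold. Its value was -0.85 after the correction (adjusted p = 0.0026) but 0.09 with TPM.

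The other MAP kinase phosphatases did not move as 1 group. Of the 4 further genes, DUSP16, which encodes the JNK- and p38-directed phosphatase MKP-7, was the 1 called higher. Of all tested genes 14.2% were. Its level rose from 7.94 and 6.64 to 29.4 and 33.0 FPKM (log2 fold change 2.09, SE 0.13, adjusted p = 5.0e-04). It remained called after correction for length and GC content (1.44), with a transcript of 6661 nt. DUSP8, another JNK- and p38-directed phosphatase, was at 8.74, 7.59, 4.87 and 3.59 FPKM (-0.94, adjusted p = 0.0054), and DUSP7 (-0.51) and DUSP9 (-0.71) also had both knockout values below both WT values, with none called. The median of the list was -0.61 as deposited but 0.06 with TPM and -0.04 after the correction, so its sign depends on the scaling.

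The atypical dual specificity phosphatases, which lack the kinase-binding domain of the MAP kinase phosphatases, had 8 of 9 genes tested. DUSP23 fell from 13.6 and 24.8 to 3.31 and 3.22 FPKM (-2.45, SE 0.28, adjusted p = 9.7e-04) and DUSP18 rose from a mean of 0.750 to 2.17 FPKM (1.41, adjusted p = 0.0050). Both remained called after the correction (-1.56 and 1.39). DUSP18 passed the filter through the knockout libraries only. The median of the list was -0.34, with TPM 0.34. Of the remaining Sprouty and SPRED genes 2 of 3 were tested, of which limma called none and 1 had an unadjusted p under 0.05. SPRY1 was at 0.836, 0.503, 1.74 and 1.57 FPKM (1.22, SE 0.35, adjusted p = 0.0242), higher in both knockout libraries but past the fold threshold only. Like DUSP18, it passed the filter through the knockout libraries only. SPRED3 had overlapping groups (-0.08).

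Of 19 genes of the cascade from receptor adaptors to ERK and its kinase targets, 8 were called higher and 2 lower. Among those called higher, GAB1 (1.43) had a WT mean of 0.758 FPKM and passed the filter through the knockout libraries only. The median was 0.86. Of all tested genes 14.2% were called higher and 15.3% lower. HRAS, a RAS GTPase, fell from 119 and 166 to 44.2 and 48.2 FPKM (-1.61, SE 0.18, adjusted p = 9.0e-04), and MAP2K2, which encodes MEK2, was the other gene called lower (-1.56). After correction for length and GC content the median of the list was 0.38. The correction left 1 of its genes called higher, beside 6.38% of 13112 genes. With TPM 13 genes of the list were called higher, where 33.1% of all tested genes were. HRAS (-0.93) and MAP2K2 (-0.88) then no longer passed the fold threshold.

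Paralogs within this cascade, singled out after their values were seen, differed in direction. BRAF (1.06) was called higher while ARAF had a value of -0.74, and MAP2K1 was at 0.48 beside MAP2K2 at -1.56. In both pairs the gene with the higher value had the longer canonical transcript, with 6459 nt against 2378 for BRAF and ARAF and 2547 against 1727 for MAP2K1 and MAP2K2. After the correction BRAF (0.21), HRAS (-0.63) and MAP2K2 (-0.59) were no longer called. With TPM the value of ARAF was -0.06.

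Of 8 other brakes on receptor and RAS signalling 7 were tested, with 5 called higher and 1 lower and a median of 1.05. The shares over all tested genes were 14.2% higher and 15.3% lower. RASA1, a RAS GTPase-activating protein, rose from 3.35 and 2.35 to 9.88 and 10.8 FPKM (1.84, adjusted p = 7.9e-04), and CBL, a ubiquitin ligase for receptor tyrosine kinases, rose from 2.34 and 2.64 to 8.45 and 8.40 FPKM (1.72, adjusted p = 5.4e-04). NF1 (1.68), ERRFI1 (1.05) and RASA2 (1.03) were also called higher and DOK1 (-1.03) lower. After the correction 1 gene of the list, RASA1 (1.29), was called higher, where 6.38% of 13112 genes were.

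The kinases that DUSP1, DUSP10 and DUSP16 act on were given by a list of 13 JNK and p38 genes and activators, of which 12 were tested. MAPK8, which encodes JNK1, rose from 5.24 and 4.77 to 15.7 and 15.1 FPKM (1.60, adjusted p = 5.1e-04), and MAPK14, which encodes p38 alpha, from 19.9 and 18.2 to 41.1 and 42.2 FPKM (1.12, adjusted p = 6.2e-04). MAPK12 (-1.09) was called lower. The list thus held 2 genes called higher and 1 lower, beside 14.2% and 15.3% of all tested genes. The median was 0.53, and 0.01 after the correction, where MAPK8 and MAPK14 were both at 0.71 (adjusted p = 0.0044 and 0.0032) and under the fold threshold.

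Transcription factors that MAP kinases act on had 11 of 11 genes tested, with a median of 0.45. Of these 2 were called higher and 1 lower, beside 14.2% and 15.3% of all tested genes. ETS1 rose from 4.32 and 3.91 to 18.8 and 19.3 FPKM (log2 fold change 2.18, adjusted p = 4.9e-04) and ETV1 from 2.56 and 2.99 to 7.23 and 10.4 FPKM (1.61, adjusted p = 0.0014). ETV4, whose mRNA like that of ETV5 is an ERK output in many cells, was the 1 gene called lower (-1.26), and ETV5 was at 0.09. ETS1 (1.52) remained called after the correction.

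Genes induced by ERK activity had 7 of 8 genes tested, with a median of 0.24. There were 2 called higher and 1 lower, where 14.2% and 15.3% of all tested genes were. FOS, an immediate early gene, rose from 31.1 and 18.5 to 223 and 224 FPKM, at 9.01 times the WT mean (log2 fold change 3.21, SE 0.24, adjusted p = 5.4e-04). EGR1, likewise an immediate early gene, rose from 0.679 and 0.918 to 7.02 and 5.90 FPKM (2.88, SE 0.22, adjusted p = 5.4e-04). With a WT mean of 0.799 FPKM, EGR1 passed the filter through the knockout libraries only, and a fall would not have been tested. FOS and EGR1 both remained called after the correction (3.54 and 3.05). FOSL1 (-1.46), a delayed early gene, was called lower, and CCND1 (-0.20) and EPHA2 (0.24) were not called. FOS and EGR1 therefore stood at several times their WT level in libraries where DUSP1 was at 1.76 times, DUSP5 at 1.48 times and DUSP2 at 0.297 times its WT mean.

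**Figure D5:**
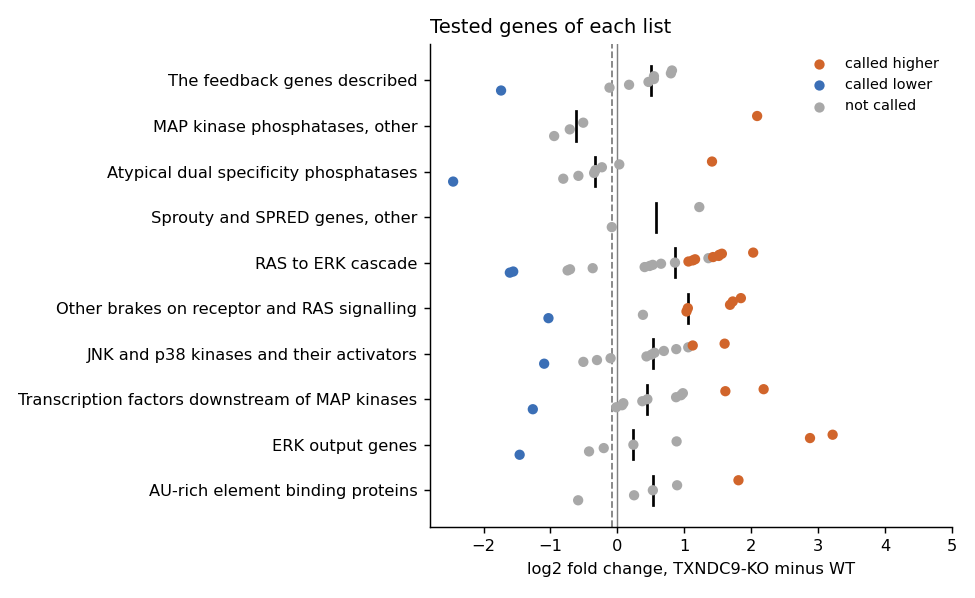
Log2 fold change (TXNDC9-KO minus WT) of every tested gene of the 10 members and 9 lists; orange and blue points were called higher and lower, short black lines are list medians, and the dashed line is the median of all tested genes (-0.09). The feedback genes described hold 1 blue and no orange point, and the 19 genes of the RAS to ERK cascade hold 8 orange and 2 blue. Of all tested genes 14.2% were called higher and 15.3% lower.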

How the data were processed

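Per the labels and the study's methods, the authors isolated polyadenylated RNA, mapped reads to hg38 with TopHat2 and computed gene levels with Cuffdiff; their versions, the scaling between libraries and whether strand was used are not given in the sources used here. The deposited values are FPKM per gene and library. The authors' group averages, fold changes, p-values and q-values were not used. Of 231916 lines 57979 held values, and identifiers were on other lines than their symbols. Identifiers put back in order matched the GENCODE 44 symbol for 34949 genes, against 1 before, and for all 10 members. The files hold no counts, and no step worth 1 read was found (at most 4.533% of genes with a mean under 0.03 FPKM shared 1 ratio), so the depth is unknown and no detection limits are given.

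The libraries were grouped by their titles. log2(FPKM + 0.1) of the 13246 genes with a mean above 1 FPKM was fitted with limma 3.58.1 (R 4.3.3) with a variance trend, using all 4 libraries without a replicate block, and with Benjamini-Hochberg adjustment over all genes. Genes were called where the adjusted p was below 0.01 and the difference 2 times or more, after the study's thresholds. On this scale the change of low genes is understated. A gene low in WT could pass the filter through its knockout values alone, as EGR1, DUSP18, SPRY1, GAB1, PDGFRB and CDH5 did. A fall of such a gene would not have been tested. Lengths, GC content and 3′ UTRs came from canonical GENCODE 44 transcripts, and the correction for both was a loess curve (span 0.3) in each library over 13112 genes. Alternatives were other pseudocounts, filters, thresholds and scalings, no trend, the replicate block, and each library left out. The members and lists were chosen with earlier results of these data known. Named genes are the members, TXNDC9, and of each list the 2 tested genes with the largest absolute change, of which 1 is not reported here; other genes were named after their values were seen. The fit was tested on simulated data. Python 3.11.15, pandas 2.3.3, numpy 2.4.6 and matplotlib 3.10.9 were used.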

Additional observations from a re-analysis of the deposited data

How the results depend on the processing

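Of 106 recomputed values of the 8 tested members under the alternatives, 91 kept their direction and their call, which asks for both thresholds together. Another 7 came to pass both thresholds, 4 no longer did and 4 changed sign. A value that crossed the p threshold alone counts as kept, such as SPRED1 centred on the median (adjusted p = 0.0161 by limma). The sign changes were DUSP4 with TPM (0.55) and without WT replicate 2 (0.25; -0.49 without WT replicate 1), and SPRED1 with the length and GC correction, both with and without the replicate block (-0.27). Members called lower numbered 1 as deposited, 0 with the length and GC correction with or without the block, and 0 to 1 with each library left out. Members called higher numbered 0 as deposited, 5 with TPM and 1 with the length and GC correction, with or without the block. Over all genes, 2021 were called lower and 1885 higher as deposited. TPM gave 447 and 4380, the length and GC correction 1012 and 836, the correction with the block 987 and 724, and a mean FPKM above 5 gave 1704 and 1220. With each library left out the counts ran from 0 to 2633 lower and from 0 to 2136 higher, and both 0 counts came without a knockout library, where the smallest adjusted p by limma was 0.0160 and 0.0232. The replicate block gave 2146 lower and 1960 higher and changed no call of a member. Deviations of libraries with the same replicate number had a correlation of -0.09 across genes. With 2 libraries a group this cannot decide whether the numbers pair the libraries, and no label says so. The cause of these moves was not tested. With 2 libraries a group an outlier test was not possible, and the depth behind low genes such as DUSP6 and SPRY4 is unknown.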
